A study of Mus musculus with 4 samples.

Results

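The genes described here build cholesterol and fatty acids, control that synthesis, or carry cholesterol out of the cell. They were a named list of 33 genes, and 32 of them had a probe set annotated with that gene alone among 18193 genes on the array. Acat2, which encodes the cytosolic thiolase that opens the mevalonate pathway, has no such probe set in the annotation used and was not analysed. For each gene the probe set with the highest mean signal was taken. All 32 passed the filter on dim genes, a mean signal of about 29.9, so no member was lost to it.

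RNA came from CD4 T cells of 2D2 mice, whose transgenic T cell receptor recognises a myelin oligodendrocyte glycoprotein peptide. Both genotypes carry this transgene. The wildtype group (2 arrays) has miR-146a and the miR-146a-deficient group (2 arrays) lacks it. Naive cells of both groups were sorted and stimulated for 3 days on plate-bound anti-CD3 at 5 μg/ml with anti-CD28 at 1 μg/ml. The titles call the replicates biological. The labels do not state the animals' age, how the miR-146a deletion was made, or whether replicates came from separate mice. The p-values therefore measure the spread between these samples, which need not be a spread between mice. No array held resting cells, and induction by stimulation could not be measured.

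Activated T cells make their own membrane lipids. Sterol-poor conditions let the escort protein encoded by Scap carry the transcription factors encoded by Srebf1 and Srebf2 from the endoplasmic reticulum to the Golgi, where they are cut and released to the nucleus. The Insig proteins hold the complex back when sterols are plentiful. Liver X receptors respond to oxysterols and drive the exporters Abca1 and Abcg1, so the synthesis of cholesterol and its export are regulated in opposite ways.

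The missing regulator is a single microRNA, shown here because it defines the comparison. The capitals mark its seed, bases 2 to 8 from the 5′ end, as given by RefSeq on GRCm38.p6.
miR-146a-5p: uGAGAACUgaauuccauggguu

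Promoter windows of 4 named genes are shown to place short sequence motifs beside the values that follow. Each window runs from 250 bases before to 50 bases after a RefSeq gene start, 5′ to 3′ on the gene's strand. The table held windows for 26 of the 33 listed genes. Capitals mark matches on either strand to TCACNCCAC, a form of the sterol regulatory element, to CCAAT, the box bound by NF-Y, or to the E-box CACGTG. In Fasn, a CCAAT match and its reverse complement overlap.
Hmgcs1, GRCm38.p6 chr13:119690101-119690400, plus strand: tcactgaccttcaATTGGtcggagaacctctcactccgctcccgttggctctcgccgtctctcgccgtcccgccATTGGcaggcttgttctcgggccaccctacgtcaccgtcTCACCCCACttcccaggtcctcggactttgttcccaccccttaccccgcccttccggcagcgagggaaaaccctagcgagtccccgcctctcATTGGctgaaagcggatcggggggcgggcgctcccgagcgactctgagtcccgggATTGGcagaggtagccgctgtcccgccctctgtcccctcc
Insig1, GRCm38.p6 chr5:28071162-28071461, plus strand: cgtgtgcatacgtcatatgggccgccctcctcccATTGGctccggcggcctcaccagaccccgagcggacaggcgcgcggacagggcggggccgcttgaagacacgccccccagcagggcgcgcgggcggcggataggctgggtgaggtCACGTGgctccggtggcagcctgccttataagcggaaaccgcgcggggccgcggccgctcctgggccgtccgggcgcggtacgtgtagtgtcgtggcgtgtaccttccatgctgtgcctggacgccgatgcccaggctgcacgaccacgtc
Srebf2, GRCm38.p6 chr15:82147019-82147318, plus strand: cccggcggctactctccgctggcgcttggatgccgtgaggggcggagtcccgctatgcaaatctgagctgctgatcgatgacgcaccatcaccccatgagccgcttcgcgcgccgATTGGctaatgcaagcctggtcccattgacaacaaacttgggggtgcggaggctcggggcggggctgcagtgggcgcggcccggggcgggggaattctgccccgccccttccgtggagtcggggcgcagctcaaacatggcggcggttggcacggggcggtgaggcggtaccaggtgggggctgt
Fasn, GRCm38.p6 chr11:120824498-120824797, minus strand: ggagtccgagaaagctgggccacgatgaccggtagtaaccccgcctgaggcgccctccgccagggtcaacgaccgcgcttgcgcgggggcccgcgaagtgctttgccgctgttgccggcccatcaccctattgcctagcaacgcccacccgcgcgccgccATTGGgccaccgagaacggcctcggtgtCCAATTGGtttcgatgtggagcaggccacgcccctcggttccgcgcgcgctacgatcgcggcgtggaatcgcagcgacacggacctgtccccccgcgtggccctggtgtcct

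The CCAAT letters were in a window of 21 of the 26 listed genes with one (80.8%), and 41.1% of all 27025 genes in the table had them. TCACNCCAC was found in 1 of the 26, Hmgcs1, where it begins 137 bases before the start, and in 1.44% of all genes. CACGTG was in 6 of 26, Insig1 among them, and in 8.09% of all genes. These matches are descriptions of letters in a window and not of binding.

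The transcripts of this pathway differed little between the genotypes. By limma's moderated test with Benjamini-Hochberg adjustment over all 12819 genes tested, 0 of the 32 members were called higher and 0 lower. Over all genes, 0.172% were called higher and 0.00780% lower (0.179% in either direction). No member had an unadjusted p below 0.05 either, where 5.25% of all genes did (2.83% higher and 2.42% lower), and the smallest adjusted p among members was 0.953. Log2 differences, deficient minus wildtype, ran from -0.31 for Abca1 to 0.27 for Abcg1, with 14 members higher and 18 lower (56.3% lower, against 52.5% of all genes). Their median was -0.027, and the median of all tested genes was -0.011. With each array centred on its median, 7 members were lower in place of 18.

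The 95% interval of the log2 difference had a median half-width of 0.24 over the members and 0.36 over all tested genes. For all 32 members the interval lay within a 2-fold change in either direction, and for 30 it lay within 1.5-fold, with Ggps1 and Abca1 as the exceptions. For 16 members it lay within 1.25-fold, as it did for 2405 of the 12819 genes tested. Over all genes, 57.3% of intervals lay within 1.5-fold and 79.5% within 2-fold. Brightness was not matched in this comparison. Among members the standard error was 0.084 for the bright Fdps and 0.28 for the dim Abca1. These intervals are not adjusted for the number of genes.

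**Figure D1:**
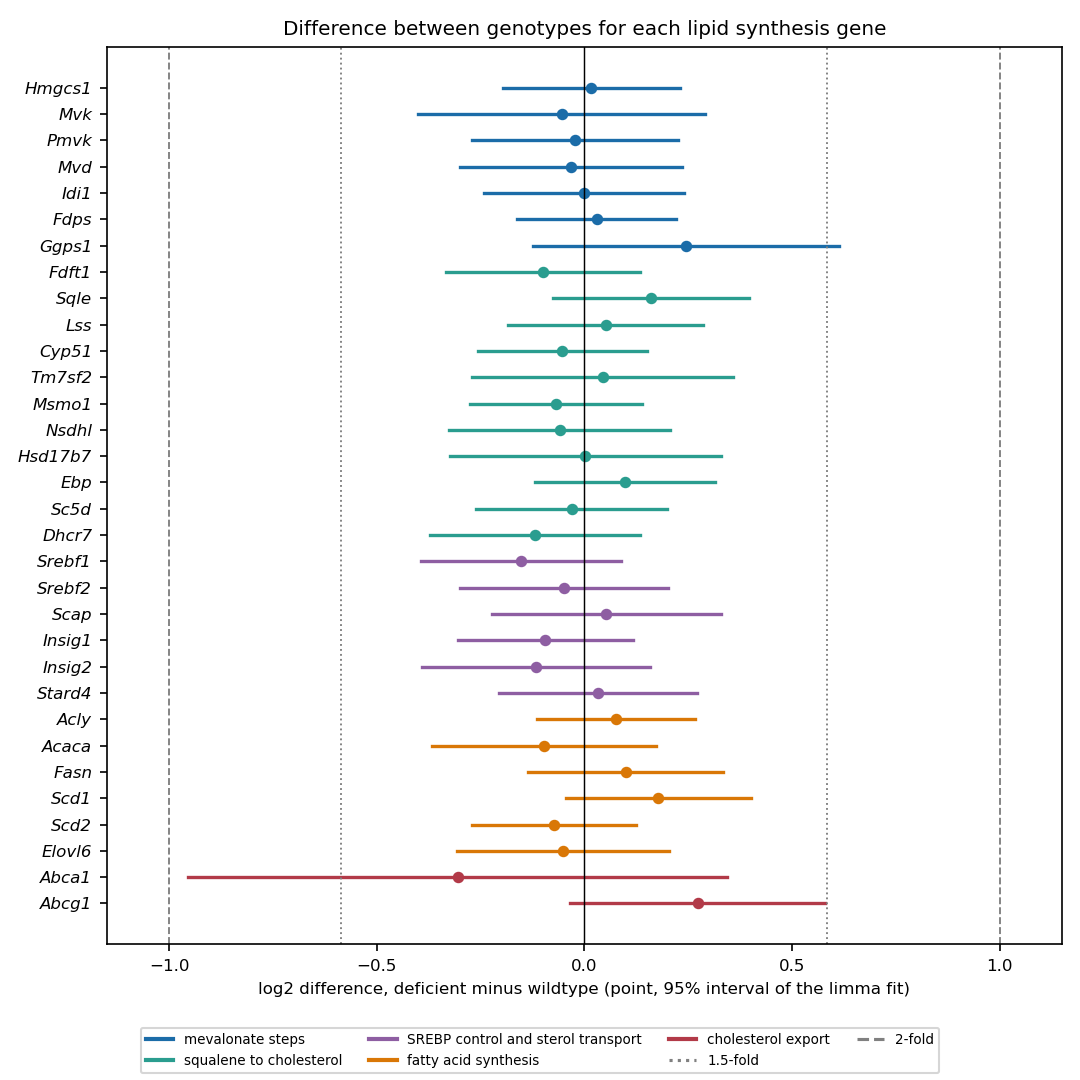
Points are log2 differences, deficient minus wildtype, of the 32 genes and lines are 95% intervals of the limma fit over 2 arrays per genotype; dotted and dashed lines mark 1.5-fold and 2-fold. Every interval includes 0 and lies within 2-fold, and those of Ggps1 and Abca1 pass the 1.5-fold lines.

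Single replicate arrays differed by as much as the genotype means did. In 27 of 32 members the genotype difference was smaller than the larger of the gaps between replicate arrays, as it was in 78.2% of all genes. The median absolute log2 gap was 0.13 between the wildtype arrays, 0.082 between the deficient arrays and 0.064 between genotype means. A gap between single arrays varies more than a difference between means of 2 arrays, so these sizes are not on an equal footing. Wildtype replicate 2 stood above wildtype replicate 1 in 26 of 32 members, against 50.8% of all genes, while deficient replicate 2 stood above deficient replicate 1 in 17 of 32. The count of members lower in the deficient cells followed the wildtype array used. It was 24 of 32 without wildtype replicate 1 (median -0.065) and 10 of 32 without wildtype replicate 2 (median 0.039), with 0 members called each time.

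**Figure D2:**
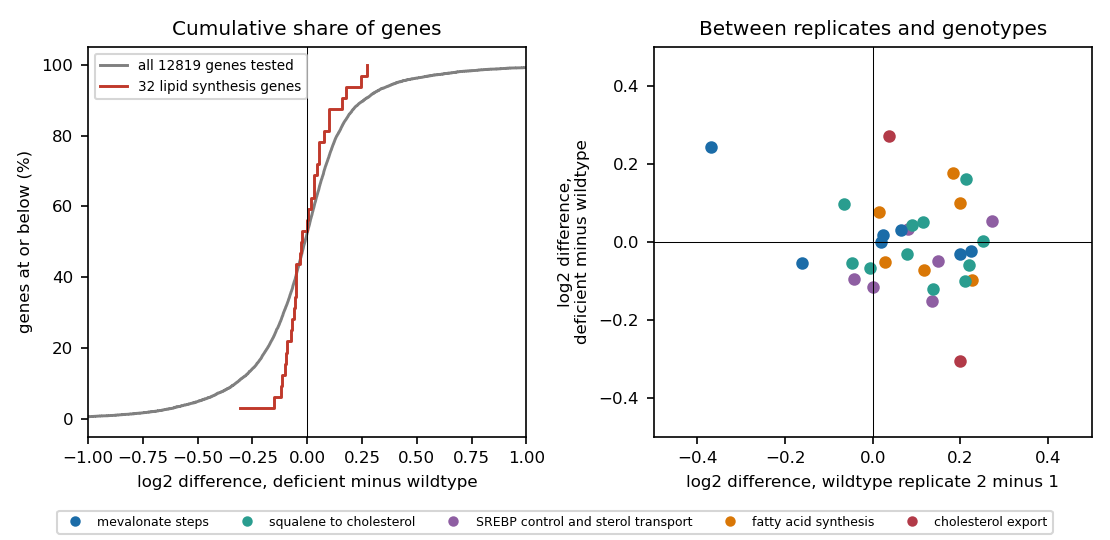
The left panel gives the cumulative percent of genes at or below each log2 difference, deficient minus wildtype, for all 12819 tested genes and for the 32 members. The right panel sets each member's log2 gap between wildtype arrays on the x axis beside its genotype difference on the y axis; both use the wildtype arrays. Most points lie right of 0 on the x axis (26 of 32), and on the y axis 14 lie above 0 and 18 below.

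The marker genes of T cells were bright on all arrays. The sums for B cells and for dendritic cells and macrophages were higher in both deficient arrays. The summed signal of the 7 T cell markers measured, of 8 listed, was 44466 and 50225 in the wildtype and 46551 and 50042 in the deficient arrays. Cd4 itself read 605 and 655 against 462 and 725. The 6 B cell markers measured, of 7 listed, summed to 855 and 1240 in the wildtype and 2991 and 4034 in the deficient arrays, with 3 called higher. The 7 dendritic cell and macrophage markers summed to 1714 and 2293 against 4533 and 5061, with 2 called higher. That rise lay in H2-Aa (mean signal 1463 against 4051) and Cybb (55.2 against 319), genes that B cells also express. Csf1r differed by 0.21 with overlapping arrays, while Lyz2, Adgre1, Itgax and Cd68 had lower deficient means, by -0.52, -0.47, -0.28 and -0.16, and none of these 5 was called. The 4 CD8 and NK cell markers measured, of 5 listed, summed to 950 and 974 against 978 and 1267, with 0 called. No marker measured was at 0, and Pax5, Itgax, Ncr1 and the red cell marker Alas2 lay below the filter. Pax5 had a mean of 46.4 in the wildtype and a lower one, 16.6, in the deficient arrays. Bulk RNA cannot tell more cells of a type from more RNA per cell, and the part of these cells in the lipid gene values was not tested. The ratio of 3′ to 5′ signal of the transferrin receptor control, a sign of RNA quality, was 2.40 and 2.74 in the wildtype and 1.92 and 2.23 in the deficient arrays. The same ratio for Gapdh was 0.7783 and 0.8080 against 0.7457 and 0.7781, where the groups were apart by a narrow margin. For beta-actin it was 1.17 and 1.30 against 1.14 and 1.25, where the arrays overlapped.

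The mevalonate steps, which turn acetyl-CoA into isoprenoid units, were nearly level between the genotypes. Of the 7 measured, 3 were higher and 4 lower, with a median of -0.0014, and 0 were called. Hmgcs1, the cytosolic HMG-CoA synthase, read 12071 and 12261 in the wildtype and 11529 and 13136 in the deficient arrays. The deficient values enclosed the wildtype ones, and the log2 difference was 0.017 ± 0.094 (SE, adjusted p = 0.996 by limma). Mvk, mevalonate kinase, read 433 and 386 against 414 and 372, which overlap, a difference of -0.055 ± 0.15. Fdps, the farnesyl diphosphate synthase at the branch point of sterols and other isoprenoids, read 10513 and 10986 against 11029 and 10905, a difference of 0.029 ± 0.084. Pmvk, Mvd and Idi1, the remaining enzymes on the way to farnesyl diphosphate, lay between -0.032 and -0.0014, and their arrays overlapped.

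Ggps1, which makes geranylgeranyl diphosphate for protein prenylation, had the largest difference of the mevalonate group. Its signal was 496 and 381 in the wildtype and 515 and 520 in the deficient arrays. The groups did not overlap, with wildtype replicate 2 low and the other 3 arrays close together. The difference was 0.24 ± 0.16 (adjusted p = 0.971) on a probe set whose name marks it as matching several transcripts. A second probe set gave -0.33 and the other two 0.032 and -0.0078, so the probe sets of this gene did not share a direction.

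The 11 enzymes from squalene to cholesterol were likewise divided, 5 higher and 6 lower, with a median of -0.030 and 0 called. Sqle, squalene epoxidase, which catalyses a rate-controlling oxygenation, read 3103 and 3599 in the wildtype and 3734 and 3742 in the deficient arrays. Both deficient arrays were above both wildtype arrays, and the gap between the wildtype arrays exceeded the gap to the deficient ones. Its difference, which ran from 0.054 to 0.27 without 1 array, was 0.16 ± 0.10 (adjusted p = 0.971), with an interval from 0.949-fold to 1.32-fold. Ebp, the sterol isomerase, read 2617 and 2498 against 2793 and 2681, without overlap and with a difference of 0.098 ± 0.095. Dhcr7, the reductase of the last step, read 1870 and 2059 against 1702 and 1913, which overlap, with a difference of -0.12 ± 0.11.

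The other 8 enzymes of this segment stayed in a narrow band. Fdft1 (squalene synthase), Cyp51 (lanosterol demethylase), Msmo1, Nsdhl and Sc5d lay between -0.10 and -0.030, and Lss (lanosterol synthase), Tm7sf2 and Hsd17b7 between 0.0019 and 0.052. Of all 32 members, 6 were higher in both deficient arrays than in both wildtype arrays and 4 were lower in both. Over all tested genes 15.9% were so placed higher and 17.7% lower, 33.6% in all, so 10 of 32 is near that background.

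**Figure D3:**
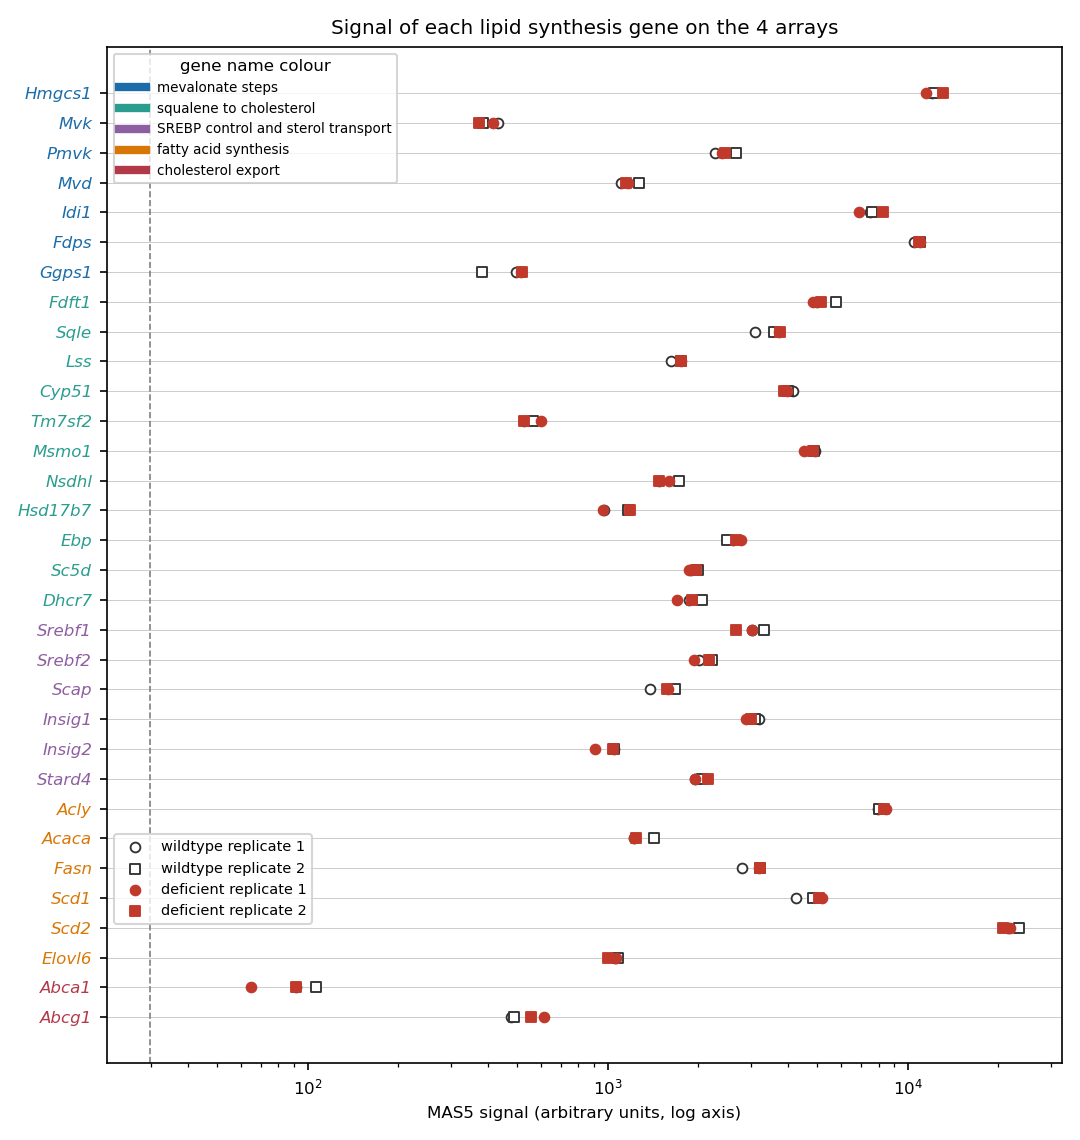
Each row is 1 gene and each symbol 1 array, with the MAS5 signal on a log axis; open symbols are wildtype, filled red symbols are miR-146a-deficient, and the dashed line marks the filter near 29.9. The 4 arrays lie close together in nearly every row, with Abca1 (64.8 to 107) and Ggps1 (381 to 520) among the widest; signals of different genes come from different probes and are not comparable with each other.

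Of the regulators of sterol sensing and transport, 4 of 6 were lower and 2 higher, with a median of -0.072 and 0 called. That median was 0.0070 without deficient replicate 1 and 0.011 with median centring. Srebf1, which encodes the factor best known for driving fatty acid synthesis genes, read 3023 and 3324 in the wildtype and 3029 and 2684 in the deficient arrays. Deficient replicate 2 was the low array, and deficient replicate 1 lay between the wildtype values. The difference was -0.15 ± 0.11 (adjusted p = 0.971). Srebf2, whose factor chiefly drives sterol synthesis genes, read 2015 and 2235 against 1936 and 2170, which overlap, a difference of -0.050 ± 0.11.

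Both Insig genes had lower means in the deficient cells without passing the test. Insig1, itself a sterol-repressed target of the pathway, read 3193 and 3100 against 2896 and 2997. The groups did not overlap, and the difference was -0.094 ± 0.093 (adjusted p = 0.976), with an interval from 0.809-fold to 1.08-fold. Insig2 read 1053 and 1054 against 906 and 1040, with deficient replicate 1 low, and differed by -0.12 ± 0.12 (-0.018 without that array). Its 3 probe sets all gave lower values, from -0.16 to -0.099. Scap and Stard4, a carrier of cholesterol between membranes, had differences of 0.053 and 0.033.

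The fatty acid enzymes were divided evenly, 3 higher and 3 lower, with a median of 0.013 and 0 called. Scd1, a desaturase that puts the double bond into newly made saturated fatty acids, read 4248 and 4823 in the wildtype and 5164 and 5077 in the deficient arrays. All deficient values were above the wildtype ones, wildtype replicate 1 being the low array. The difference was 0.18 ± 0.098 (adjusted p = 0.953), the largest of this group, and the other Scd1 probe set gave 0.080. Fasn, fatty acid synthase, read 2797 and 3215 against 3206 and 3220. Only wildtype replicate 1 stood apart, and the difference was 0.099 ± 0.10.

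Acly, which supplies cytosolic acetyl-CoA from citrate to both pathways, read 7937 and 8010 against 8466 and 8354. The groups did not overlap and replicates were close, yet the difference was 0.077 ± 0.084 (adjusted p = 0.976). Of its 4 other tested probe sets, one of similar brightness gave -0.12 and a dim one -0.96. Acaca (acetyl-CoA carboxylase), Elovl6 (an elongase) and Scd2, a second stearoyl-CoA desaturase, lay between -0.097 and -0.051, with overlapping arrays.

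The exporters, both targets of liver X receptors, gave the highest and the lowest difference of the list on their brightest probe sets. Abcg1 read 475 and 488 in the wildtype and 615 and 556 in the deficient arrays. The groups did not overlap, and the difference was 0.27 ± 0.13, an estimated 1.22-fold, with the smallest p of all members (0.0757 by limma, adjusted p = 0.953). Its dim second probe set gave 0.049. Abca1 was dim, at 91.4 and 107 against 64.8 and 91.6, and differed by -0.31 ± 0.28 with overlapping arrays. Its 2 other probe sets, below the filter, gave 0.35 and 0.42. Averaged over every probe set, Abca1 read 0.15 and Abcg1 0.16, and without deficient replicate 1 Abca1 read -0.096.

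Probe sets of the same gene often differed in sign. The 32 members have 76 probe sets, of which 67 passed the filter, and 0 of these were called in a fit over all 27022 probe sets, of which 45 were. Among the 19 members with more than 1 tested probe set, all probe sets were lower in 5 (Mvd, Idi1, Sc5d, Insig2 and Elovl6), all higher in 2 (Scd1 and Abcg1), and of both signs in 12. Some of these 12 rest on a dim probe set, such as that of Acaca at 36.2 and 23.1 against 59.8 and 17.2 (0.15 ± 0.49). A single member probe set had an unadjusted p below 0.05, one of Stard4 at 895 and 661 against 533 and 597. It differed by -0.44 ± 0.17 (adjusted p = 0.855), while the brightest Stard4 probe set gave 0.033. The share of all probe sets below that p was not counted.

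**Figure D4:**
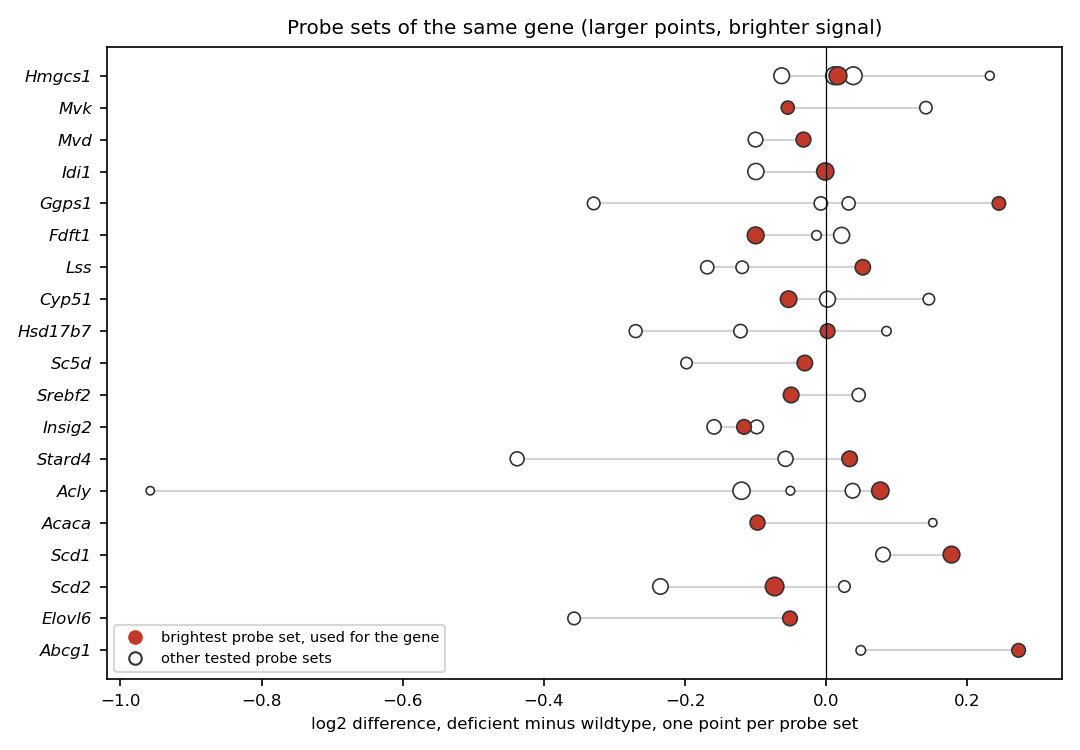
For the 19 genes with more than 1 tested probe set, each point is 1 probe set's log2 difference, deficient minus wildtype, with point size growing with mean signal and the brightest probe set in red. The points of 12 genes fall on both sides of 0, and the farthest, near -0.96, is a dim probe set of Acly.

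Related lipid genes outside the list gave 0 calls as well. Of 55 genes for sterol-regulated protein processing, other lipogenic enzymes, the isoprenoid branch, liver X receptor signalling and lipid uptake, 49 had a probe set and 47 were tested. Their median difference was 9.4e-05, with 24 higher and 23 lower. An unadjusted p below 0.05 was found for 5 of the 47, where 5.25% of all genes had one, and none of these passed over all genes.

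Rxra, the retinoid partner receptor of liver X receptors, had the smallest p. It read 567 and 667 in the wildtype and 447 and 429 in the deficient arrays, a difference of -0.48 ± 0.14 (adjusted p = 0.612), and its other tested probe set gave -0.64. The groups did not overlap, with both deficient arrays low. Scarb1, the lipoprotein receptor for cholesteryl esters, read 1746 and 1392 against 1121 and 1206, a difference of -0.42 ± 0.13 (adjusted p = 0.652). All 3 of its probe sets were lower, from -0.51 to -0.17, and none was called. The -0.17 came from the only probe set whose name does not end in _x_at, an ending that marks possible cross-matches.

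Gpr183, the receptor for an oxysterol that guides lymphocytes, read 572 and 538 against 709 and 775, a difference of 0.41 ± 0.13 (adjusted p = 0.652). Its other probe set, which was dimmer, gave 0.22. B cells also express Gpr183, and the B cell marker sum given above was higher in both deficient arrays. The part of B cells in the Gpr183 signal was not tested. Cd36, a fatty acid scavenger receptor, read 193 and 166 against 280 and 225 and differed by 0.46 ± 0.20 (adjusted p = 0.940). Its other tested probe set gave 0.57. Erlin1, an endoplasmic reticulum protein of sterol-regulated degradation, read 1450 and 1616 against 1227 and 1322 and differed by -0.26 ± 0.11 (adjusted p = 0.936). Lpin1, a phosphatidate phosphatase, read 1020 and 1081 against 738 and 956 and differed by -0.32 ± 0.14 (adjusted p = 0.947). Its other probe set gave -0.13, with overlapping arrays. On the brightest probe set of each of these 3 genes, both deficient arrays lay on the same side of both wildtype arrays.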

How the data were processed

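The authors deposited 1 linear intensity, a MAS5 signal, per probe set and array of the Affymetrix mouse array; MAS5 and the Transcriptome Analysis Console are named in the submitters' processing notes, without version. Every array had a 2% trimmed mean of 500, so the signals were already scaled, and no further normalization was applied. Detection calls were not used, and array number limits the precision. Of 45101 probe sets, 64 controls were left out. The other probe sets had 1 gene symbol in 34945 cases, several in 932 and none in 9160, and only the first kind was named.

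Signals were transformed as log2(signal + 14.7), the 25th percentile of all values, which understates changes of dim genes. A gene was tested if its mean log2 signal reached the 40th percentile of all probe sets, 5.48. Genotype was fitted on all 4 arrays with limma 3.58.1 in R 4.3.3 (eBayes with intensity trend, two-sided, threshold 0.05 after Benjamini-Hochberg adjustment). The fit was tested on simulated data. Standard errors and intervals come from this fit. Members, lists and tests were chosen with earlier results of these data known. Values per array are given for the 3 members of smallest p in each role group and for Hmgcs1, Sqle, Srebf1, Srebf2, Insig1, Fasn and Abca1, and among related genes for the 6 of smallest p. The Stard4 probe set was named after its values were seen. Figures were drawn with matplotlib 3.10.9.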

Additional observations from a re-analysis of the deposited data

How the results depend on the processing

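With 2 arrays per genotype, the unadjusted interval of a typical member could not tell log2 differences below about 0.24 from 0. The adjusted test over all genes was stricter. The related gene Rxra, at -0.48, was not called by it (adjusted p = 0.612 by limma). No alternative called a member: the count was 0 higher and 0 lower in each, without 1 array included. Over all genes, 22 were called higher and 1 lower; the higher count was 1 with no filter, 49 with median centring, 13 with the mean of all probe sets, 13 with the replicate block, 39 at an adjusted p of 0.10 and 0 without intensity trend, where 0 were lower. It ran from 15 to 82 without 1 array, and the lower count from 4 to 33; that was 2 without probe sets ending in _x_at or _s_at, an alternative chosen after seeing the data that concerns 6 members. The replicate numbers did not pair the arrays (r = 0.054 across genes), and the block changed no member's call. The median over members was 0.056 with median centring, which moved the median of all genes to 0.073 and left 7 of 32 members lower, and ran from -0.065 to 0.039 without 1 array. Without wildtype replicate 1, Ggps1 had an unadjusted p below 0.05, and without wildtype replicate 2, Scd1 and Sqle had one. Medians of all 5 groups took both signs without 1 array: mevalonate steps from -0.023 to 0.061, squalene to cholesterol from -0.065 to 0.050, sterol sensing and transport from -0.10 to 0.0070, fatty acid synthesis from -0.033 to 0.050 and export from -0.086 to 0.053. Single members changed direction too, among them Abca1 and Ggps1, which lay far from 0. Fdps and Hmgcs1 read -0.0085 and -0.022 with quantile normalization, and Mvk and Srebf2 read 0.029 and 0.033 with median centring. With the mean of all probe sets Ggps1, Mvk, Fdps, Acly and Abca1 read -0.015, 0.043, -0.062, -0.15 and 0.15. That mean weighs dim probe sets the same as bright ones. For Fdps it took in one at 2.55 and 8.90 in the wildtype and 7.26 and 0.280 in the deficient arrays. For Acly it took in the dim one at -0.96. Ggps1 read -0.0078 without _x_at and _s_at probe sets. Without 1 array, Mvk ran from -0.14 to 0.026, Fdps from -0.0025 to 0.061, Fasn from -0.00079 to 0.20, Srebf2 from -0.13 to 0.032 and Hmgcs1 from -0.077 to 0.11. Some sizes moved over 1.5 times without 1 array and kept their sign in those runs. These included Ggps1 (0.061 to 0.43), Abca1 (-0.51 to -0.096), Insig2 (-0.21 to -0.018), Dhcr7 (-0.20 to -0.037), Srebf1 (-0.24 to -0.066), Scd1 (0.086 to 0.27) and Lpin1 (-0.50 to -0.13). The cause was not tested, except that these alternatives change the scaling, the probe sets or the arrays used.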
